A study of Mus musculus with 12 samples.

Results

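The genes described here were 10 transcription factors of squamous, that is stratified, epithelium: Trp63, Tfap2a, Pitx1, Klf5, Ehf, Klf4, Zfp750, Grhl1, Grhl3 and Ovol1. They were picked by name, as p63 and known regulators of stratified differentiation, and all 10 were found among the 23337 gene symbols that the count files list. All 10 were also among the 14134 genes that passed a filter on low counts. RNA was counted in oesophageal epithelium, mechanically parted from the stroma, of C57BL/6 mice aged 6 weeks, in 4 genotype groups of 3 libraries each. Ikkβca mice carried ED/L2-Cre and the ROSA26-StopFL-Ikk2ca allele, which yields a constitutively active IKKβ kinase once Cre removes its stop cassette. Stat3KO mice carried ED/L2-Cre and floxed Stat3 alleles (Stat3L/L). Ikkβca+Stat3KO mice carried ED/L2-Cre with both of these. Control mice carried the Ikk2ca allele and Stat3L/L without Cre, so the presence of Cre and the genotype change cannot be told apart in any comparison with Control. The interaction and the averaged effects given below also use Control, so they carry the same limit. The ED/L2 promoter of Epstein-Barr virus drives Cre in oesophageal epithelial cells. The sample labels give the Ikk2ca allele as +/L while the design text writes it as f/f. Whether the 3 libraries within a group are from different animals is not stated. The level of Xist, given with the library facts, shows at least 2 animals per group, and whether replicates 2 and 3 of a group are separate animals is not known.

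The oesophagus of the mouse is lined by a stratified squamous epithelium in which basal cells divide and their daughters move up, leave the cell cycle and differentiate. p63, the product of Trp63, marks and maintains the basal progenitors, while KLF4, GRHL, OVOL1, ZFP750 and EHF proteins are known from skin and mucosa as regulators of the suprabasal programme. IKKβ activates NF-κB, and STAT3 carries signals of the IL-6 family of cytokines, so the design asks how an inflammatory signal in the epithelial cells, with and without Stat3, bears on their genes. In bulk tissue, fewer cells of a type and less RNA per cell cannot be told apart.

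The libraries held between 14816468 and 30188363 counts in total, and a member had between 1430 and 20399 counts per library. Krt4 and Krt13, the keratins of suprabasal oesophageal cells, took 5.06, 13.8 and 12.8% of all counts in the Ikkβca libraries, in the order of replicates 1, 2 and 3. Their share was 6.01, 6.62 and 10.4% in Stat3KO, 11.6, 4.05 and 13.4% in Ikkβca+Stat3KO, and 5.22, 6.22 and 13.9% in Control, so every group held at least 1 library on each side of a gap between 6.62 and 10.4%. Gastric transcripts summed to 1709 CPM (counts relative to a library total scaled by TMM, a normalisation that assumes most genes do not differ) in Ikkβca replicate 1 and 113 CPM in Stat3KO replicate 3, to 18.9 CPM in Stat3KO replicate 1 and to at most 2.56 CPM elsewhere. Xist, the RNA of the inactive X chromosome of females, was at 863 to 1689 CPM of the library total in replicate 1 of every group and at 0.334 to 1.56 CPM in replicates 2 and 3, and the sample labels give no sex. Leukocyte transcripts, over the 12 of 14 listed genes that the files hold (10 passed the filter on low counts), summed to 122 to 375 CPM in Ikkβca, 52.2 to 85.7 CPM in Stat3KO, 38.7 to 84.4 CPM in Ikkβca+Stat3KO and 38.5 to 88.0 CPM in Control. Transcripts of smooth muscle and fibroblasts, over 12 listed genes, ran from 1546 CPM in Ikkβca replicate 1 to 5022 CPM in Ikkβca replicate 3. Those of skeletal muscle, also over 12 genes, ran from 126 CPM in Stat3KO replicate 1 to 1854 CPM in Stat3KO replicate 3. The part of such tissue in the members' levels was not tested. Stat3 itself was still counted at 139 to 154 CPM in Stat3KO and 154 to 194 CPM in Ikkβca+Stat3KO, against 157 to 179 CPM in Control, and counts per gene do not show whether floxed exons were missing. Ikbkb, which encodes IKKβ, stood at 84.6 to 97.7 CPM in Ikkβca against 59.7 to 82.6 CPM in Control.

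Klf4, Grhl1 and Grhl3 varied together from library to library and had promoter sequences at hand, which are shown for that reason. Zfp750 varied with them as well, but no promoter sequence was at hand for it. Its r of log2 CPM over the 12 libraries was 0.97 with Grhl3, 0.89 with Klf4 and 0.87 with Grhl1. RefSeq (GRCm38.p6) gave promoter windows, from 250 bases before to 50 bases after a gene's start, for 4 of the 10 members, 6 windows in all, and 1 window for each of these 3 genes, for Grhl1 the more upstream of its 2, follows, 5′ to 3′ on the gene's own strand. Klf4 lies at chr4:55532426-55532725 on the minus strand, Grhl3 at chr4:135573583-135573882 on the minus strand and Grhl1 at chr12:24572037-24572336 on the plus strand. Capitals mark matches to either of the letter patterns CACCC, bound by KLF factors, and GCCNNNGGC, bound by AP-2 factors, read on both strands.
Klf4: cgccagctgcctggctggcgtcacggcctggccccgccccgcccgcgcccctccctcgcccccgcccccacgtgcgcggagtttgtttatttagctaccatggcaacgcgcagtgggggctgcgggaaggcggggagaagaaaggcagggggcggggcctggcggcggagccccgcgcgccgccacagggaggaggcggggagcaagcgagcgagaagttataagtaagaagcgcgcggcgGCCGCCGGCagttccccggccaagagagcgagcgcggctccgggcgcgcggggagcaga
Grhl3: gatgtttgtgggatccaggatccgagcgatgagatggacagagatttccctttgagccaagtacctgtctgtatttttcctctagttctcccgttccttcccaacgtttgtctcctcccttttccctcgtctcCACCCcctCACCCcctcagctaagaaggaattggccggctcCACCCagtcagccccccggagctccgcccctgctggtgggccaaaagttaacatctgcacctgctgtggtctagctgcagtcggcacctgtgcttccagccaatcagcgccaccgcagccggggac
Grhl1: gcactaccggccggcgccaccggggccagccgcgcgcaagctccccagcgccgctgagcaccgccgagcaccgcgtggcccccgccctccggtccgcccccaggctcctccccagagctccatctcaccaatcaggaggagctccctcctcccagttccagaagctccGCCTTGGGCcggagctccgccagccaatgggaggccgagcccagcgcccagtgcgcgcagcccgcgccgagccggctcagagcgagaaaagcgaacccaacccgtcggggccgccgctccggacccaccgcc
The Klf4 and Grhl1 windows shown each held 1 AP-2 match and no KLF match, and the Grhl3 window held 3 KLF matches and no AP-2 match. Grhl1 has a second window, chr12:24580469-24580768 on the plus strand, not printed here, with 2 KLF matches and no AP-2 match. Of all 32851 RefSeq promoter windows of this length, 16.6% held the AP-2 letters and 57.5% the KLF letters, so such matches are common. No window of the 3 held the GRHL letters AACNGGTT (2.09% of all windows), the STAT letters TTCNNNGAA (8.3%) or the NF-κB letters GGGNNTTCC (5.82%). A match is a description of letters and not evidence of binding.

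On a scale that corrects for gene length (TPM, the length-corrected share of all transcripts, from the GENCODE M21 exon union), Pitx1 was the most abundant of the 10 factors, at 830 ± 116 TPM (SD, n = 12 libraries). Klf4 followed at 397 ± 99.6 TPM and Grhl3 at 368 ± 100.4 TPM. Ehf, Zfp750 and Trp63 averaged 235, 229 and 204 TPM, Klf5 and Ovol1 155 and 150 TPM, and Grhl1 and Tfap2a 83.8 and 81.8 TPM. Pitx1 alone did not overlap its neighbour in this order: its lowest library, at 665 TPM, lay above the highest Klf4 library, at 562 TPM. All other neighbours overlapped over the 12 libraries. With the longest transcript as the length, Trp63 took the fourth place at 256 TPM, ahead of Ehf at 237 TPM, and Klf5 at 195 TPM passed Zfp750 at 185 TPM.

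**Figure D1:**
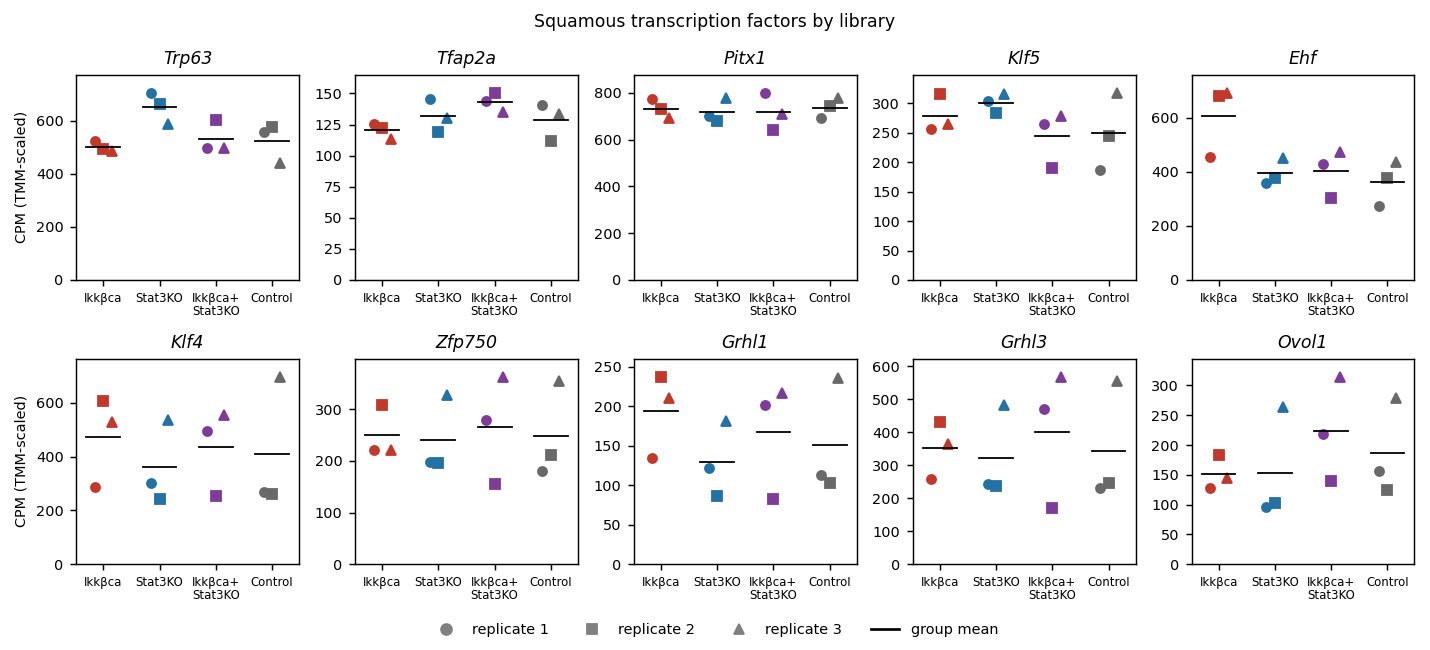
Level of each of the 10 factors in every library, in CPM scaled with TMM factors (vertical axes start at 0 and differ between genes), by genotype group from Ikkβca on the left to Control on the right. Symbols stand for replicates and bars for group means of 3 libraries. Ehf is the gene whose 3 Ikkβca libraries, 453 to 691 CPM, all lie above the Control libraries, 273 to 435 CPM, while Klf4, Grhl1, Grhl3 and Ovol1 scatter widely within groups.

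Trp63 (chromosome 16, 25683763 to 25892102, plus strand, mm10) is the basal member. It had 523, 491 and 484 CPM in Ikkβca, 703, 663 and 586 CPM in Stat3KO, 495, 602 and 495 CPM in Ikkβca+Stat3KO, and 559, 575 and 438 CPM in Control. The 3 Stat3KO libraries lay above all 3 Control libraries, although Stat3KO replicate 3 was close to the top of Control. The log2 fold change in Stat3KO over Control was 0.31 ± 0.15 (SE), with a 95% interval of -0.01 to 0.63, and did not pass the test (edgeR adjusted p = 0.668). Between Ikkβca+Stat3KO and Stat3KO, groups that both lack Stat3 by label, the log2 fold change was -0.29 ± 0.15, with an interval of -0.61 to 0.03 (edgeR adjusted p = 0.604). In Ikkβca over Control, Trp63 differed by a log2 fold change of -0.07, with an interval of -0.39 to 0.25. Counts per gene do not part the full-length and the amino-terminally truncated forms of p63.

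Tfap2a (chromosome 13, 40715302 to 40738376, minus strand), which encodes AP-2α, a regulator of keratinocyte genes, had 125, 122 and 114 CPM in Ikkβca and 145, 119 and 130 CPM in Stat3KO. It had 144, 150 and 135 CPM in Ikkβca+Stat3KO and 141, 112 and 134 CPM in Control. Every Ikkβca+Stat3KO library lay above every Ikkβca library, with a log2 fold change of 0.25 ± 0.12 and an interval of -0.01 to 0.51 (edgeR adjusted p = 0.518), while the other pairs of groups with a direct comparison overlapped. Exons of Tfap2a share bases with 3 annotated antisense genes, and since strand of the counting is not stated, reads of these genes cannot be told apart from its own.

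Pitx1 (chromosome 13, 55825051 to 55836192, minus strand), a homeodomain factor best known from limb and pituitary development, had the smallest spread of the members under TMM scaling. It had 772, 731 and 694 CPM in Ikkβca, 702, 679 and 778 CPM in Stat3KO, 798, 643 and 711 CPM in Ikkβca+Stat3KO, and 690, 743 and 777 CPM in Control, so that the groups overlapped throughout. Its log2 fold changes in the 5 comparisons between groups lay between -0.04 and -0.00, and their 95% intervals all lay within -0.32 to 0.28. A long noncoding RNA on the same strand and an antisense RNA share 108 and 165 exon bases with it.

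Klf5 (chromosome 14, 99298691 to 99315036, plus strand) encodes a zinc finger factor of proliferating epithelial cells. It had 257, 315 and 265 CPM in Ikkβca, 304, 284 and 315 CPM in Stat3KO, 266, 190 and 278 CPM in Ikkβca+Stat3KO, and 187, 244 and 317 CPM in Control. All 3 Ikkβca+Stat3KO libraries lay below all 3 Stat3KO libraries, with a log2 fold change of -0.30 ± 0.20 and an interval of -0.74 to 0.14 (edgeR adjusted p = 0.75). Stat3KO over Control gave 0.27 ± 0.20, and these groups overlapped.

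Klf4 (chromosome 4, 55527143 to 55532466, minus strand) encodes a zinc finger factor needed for the skin barrier and for orderly differentiation in the oesophagus. It had 286, 608 and 527 CPM in Ikkβca, 303, 242 and 537 CPM in Stat3KO, 497, 254 and 554 CPM in Ikkβca+Stat3KO, and 267, 261 and 695 CPM in Control. Each group held at least 1 library at or below 303 CPM and at least 1 at or above 497 CPM, with none between, and the groups overlapped throughout. The log2 fold change was 0.22 ± 0.46 in Ikkβca over Control, with an interval of -0.80 to 1.24, and -0.18 ± 0.46 in Stat3KO over Control.

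Grhl1 and Grhl3 encode grainyhead-like factors that control desmosomal cadherins and barrier genes. Grhl1 (chromosome 12, 24572283 to 24617391, plus strand) had 134, 237 and 211 CPM in Ikkβca, 122, 86.0 and 182 CPM in Stat3KO, 202, 83.0 and 216 CPM in Ikkβca+Stat3KO, and 112, 103 and 236 CPM in Control. Grhl3 (chromosome 4, 135541888 to 135573630, minus strand) had 257, 431 and 363 CPM in Ikkβca, 244, 238 and 482 CPM in Stat3KO, 469, 169 and 566 CPM in Ikkβca+Stat3KO, and 232, 245 and 555 CPM in Control. For both genes the low libraries were replicate 1 in Ikkβca, replicates 1 and 2 in Stat3KO, replicate 2 in Ikkβca+Stat3KO and replicates 1 and 2 in Control, which are also the 6 libraries with the lowest Krt4 and Krt13 share. In Ikkβca over Control the log2 fold change was 0.37 ± 0.43 for Grhl1 and 0.03 ± 0.47 for Grhl3.

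Zfp750 (chromosome 11, 121510978 to 121519333, minus strand), a zinc finger factor that acts downstream of p63 in epidermal terminal differentiation, had 221, 309 and 222 CPM in Ikkβca and 197, 195 and 327 CPM in Stat3KO. It had 279, 155 and 362 CPM in Ikkβca+Stat3KO and 180, 211 and 355 CPM in Control, and all pairs of groups overlapped. Its group means were 251 CPM in Ikkβca, 240 CPM in Stat3KO, 265 CPM in Ikkβca+Stat3KO and 249 CPM in Control, while single libraries differed by up to 2.34-fold.

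Ovol1 (chromosome 19, 5549136 to 5560646, minus strand), a zinc finger repressor that takes suprabasal cells out of the cell cycle, had 127, 184 and 144 CPM in Ikkβca, 95, 103 and 263 CPM in Stat3KO, 218, 140 and 314 CPM in Ikkβca+Stat3KO, and 156, 124 and 280 CPM in Control. Ikkβca+Stat3KO had the highest mean, 224 ± 87.2 CPM, against 187 ± 82.2 CPM in Control (SD, n = 3 each), and the groups overlapped. The log2 fold change of Ikkβca+Stat3KO over Ikkβca was 0.56 ± 0.44, with an interval of -0.40 to 1.52 (edgeR adjusted p = 0.696). An antisense pseudogene shares 690 exon bases with Ovol1, so part of its counts is uncertain.

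Ehf (chromosome 2, 103263433 to 103303278, minus strand) encodes an epithelial factor of the Ets family and was the member with the largest difference between groups. It had 453, 681 and 691 CPM in Ikkβca, 358, 376 and 452 CPM in Stat3KO, 429, 305 and 475 CPM in Ikkβca+Stat3KO, and 273, 379 and 435 CPM in Control. All 3 Ikkβca libraries lay above all 3 Control libraries. Ikkβca replicate 1, the lowest of its group, was the library rich in gastric transcripts. It was also the library of its group with a low Krt4 and Krt13 share, 5.06%, and the one high in Xist. The part of each of these in its Ehf level was not tested. Ehf averaged 608 ± 134 CPM in Ikkβca and 362 ± 82.5 CPM in Control (SD, n = 3 each), a fold change of 1.68 with a 95% interval of 1.18 to 2.39. On the log2 scale this was 0.75 ± 0.23, which did not pass the test over all genes (edgeR adjusted p = 0.214, and 0.0631 with DESeq2). Over the alternative settings the edgeR and DESeq2 adjusted p ranged from 0.00746 to 0.563, and the log2 fold change from 0.58 without Control replicate 1 to 0.92 without the libraries rich in gastric transcripts. The leukocyte transcripts named above were higher in the 3 Ikkβca libraries than in any other library, and their part in the Ehf difference was not tested.

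In Ikkβca+Stat3KO, Ehf lay near the Control level: its log2 fold change was 0.15 ± 0.23 over Control and -0.59 ± 0.23 over Ikkβca, the last with an interval of -1.10 to -0.08 (edgeR adjusted p = 0.464). Ikkβca+Stat3KO replicate 3, at 475 CPM, overlapped Ikkβca replicate 1, at 453 CPM. The test of the difference itself, whether the active IKKβ allele moved Ehf differently with and without Stat3, gave an interaction of -0.72 ± 0.33 on the log2 scale, with an interval of -1.44 to 0.00 (edgeR adjusted p = 1.0). A difference in the response of Ehf with and without Stat3 thus did not pass the test. Control alone lacked Cre, so any effect of Cre is part of this interaction as well.

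**Figure D2:**
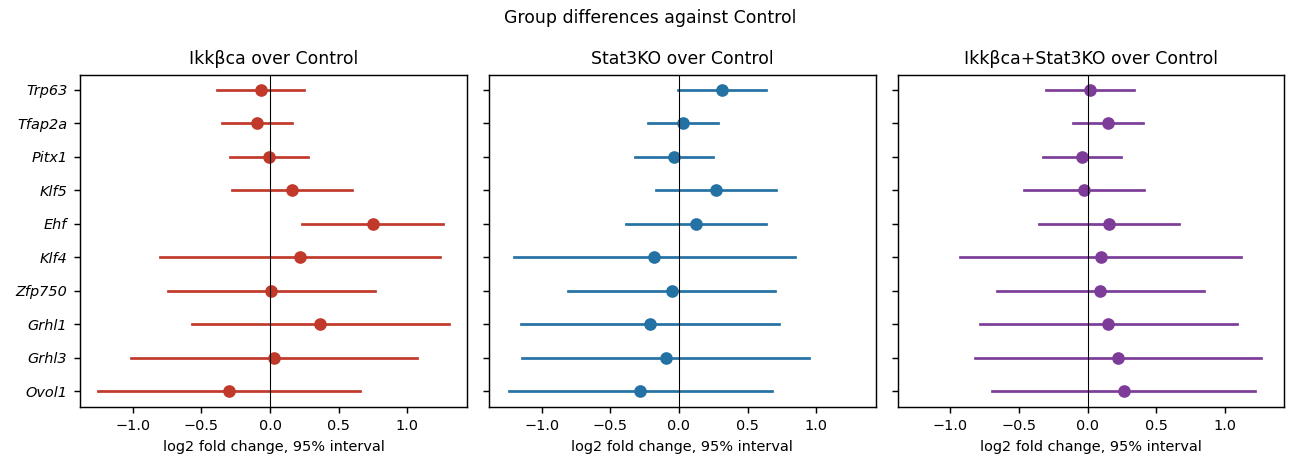
Log2 fold change of each factor in Ikkβca, Stat3KO and Ikkβca+Stat3KO over Control from the edgeR fit, with 95% intervals (horizontal bars), n = 3 libraries per group. The interval of Ehf in Ikkβca, 0.24 to 1.26, lies above 0, that of Trp63 in Stat3KO reaches from -0.01 to 0.63, and the intervals of Klf4, Grhl1, Grhl3 and Ovol1 span about 1 log2 unit on either side of their points.

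Counted over all 10 members, edgeR called 0 in Ikkβca over Control, where 0.955% of all tested genes were called, and DESeq2 called 0 as well, against 3.14% of all genes. At an unadjusted p below 0.05 there was 1 member, Ehf, with edgeR, against 13.0% of all genes, and with DESeq2 also Ehf, against 14.3%. In that comparison 1 member, again Ehf, had groups that did not overlap, against 17.6% of all genes. The members' median log2 fold change was 0.02, beside 0.00 over all genes. A share of 1 in 10 is near or below these backgrounds, so the set as a whole did not stand out in Ikkβca.

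In Stat3KO over Control edgeR called 0 members, as it called 0% of all genes, and DESeq2 called 0 against 0.752% of all genes. At an unadjusted p below 0.05 edgeR gave 0 members against 7.50% of all genes, and DESeq2 gave 1, Trp63, against 8.91%. The groups did not overlap for 1 member, Trp63, against 13.1% of all genes, and the members' median log2 fold change was -0.04 beside -0.02 over all genes. In Ikkβca+Stat3KO over Control edgeR called 0 members against 0.884% of all genes, and DESeq2 called 0 against 3.38%. At an unadjusted p below 0.05 there were 0 members by either tool, against 11.5% of all genes with edgeR and 13.0% with DESeq2, and groups parted for 0 members against 15.0% of all genes. The members' median was 0.12 there, beside 0.00 over all genes.

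Against the single changes the picture was alike. In Ikkβca+Stat3KO over Ikkβca edgeR called 0 members and 0% of all genes, and DESeq2 called 0 members against 0.929% of all genes. At an unadjusted p below 0.05 there was 1 member with edgeR, Ehf, against 9.88% of all genes, and 2 with DESeq2, Ehf and Tfap2a, against 11.5%. Groups did not overlap for 1 member, Tfap2a, against 14.7% of all genes. In Ikkβca+Stat3KO over Stat3KO edgeR called 0 members against 0.460% of all genes, and DESeq2 called 0 against 2.11%. At an unadjusted p below 0.05 edgeR gave 0 members against 8.96% of all genes, and DESeq2 gave 1, Trp63, against 10.5%. Groups did not overlap for 1 member, Klf5, against 12.9% of all genes. The members' medians were 0.03 and 0.13 in these comparisons, beside -0.01 and 0.01 over all genes. These comparisons share libraries with those against Control, so their counts are not independent of them.

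The comparisons that use all 12 libraries at once gave 0 called members as well, by edgeR and by DESeq2. For the interaction, 0% of all genes were called and 4.66% had an unadjusted p below 0.05, with 0 members, by edgeR. DESeq2 called 0.0426% of all genes and had 5.36% below an unadjusted 0.05, with 1 member, Ehf. For the active IKKβ allele averaged over both Stat3 states, 2.72% of all genes were called and 15.5% had an unadjusted p below 0.05 by edgeR, against 6.10% and 17.1% by DESeq2. Ehf was the member below 0.05 there with either tool, at a log2 fold change of 0.39 ± 0.16 (edgeR adjusted p = 0.287). For Stat3 deletion averaged over both IKKβ states, 0.262% of all genes were called and 12.7% had an unadjusted p below 0.05 by edgeR, with 0 members. DESeq2 called 2.85% and had 14.5% below an unadjusted 0.05, with 1 member, Trp63. Trp63 had the lowest adjusted p of the members in that comparison, at 0.20 ± 0.10 (edgeR adjusted p = 0.444).

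The members differed widely in how far they scattered within a group. The SD between libraries of a group, pooled over groups, was 0.68 on the log2 scale for Grhl3, 0.65 for Klf4, 0.61 for Grhl1, 0.60 for Ovol1 and 0.48 for Zfp750. It was 0.31 for Ehf, 0.26 for Klf5, 0.15 for Trp63, 0.12 for Tfap2a and 0.11 for Pitx1, against a median of 0.28 over all tested genes. With library totals as the scaling, an alternative added after seeing the data, it was 0.32 for Trp63, 0.24 for Tfap2a, 0.16 for Pitx1, 0.16 for Ehf and 0.15 for Klf5, while Klf4, Grhl1, Grhl3 and Ovol1 stayed between 0.45 and 0.52. With TMM, Ehf, Klf5, Trp63, Tfap2a and Ovol1 had group means that ranged over more than their own SD within groups. The median range over all genes, 0.39, also lay above the median SD, 0.28, so this does not set these members apart. The group means of log2 CPM ranged over 0.75 for Ehf, 0.10 for Zfp750 and 0.04 for Pitx1, against a median of 0.39 over all genes.

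**Figure D3:**
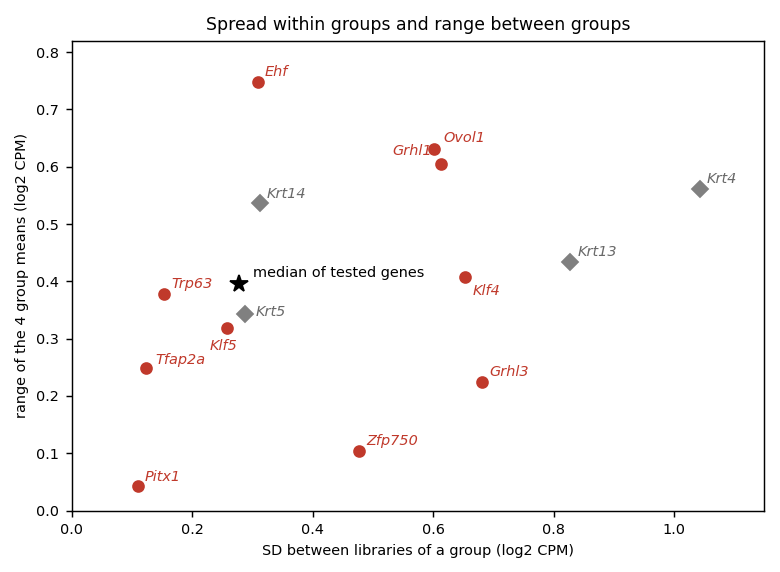
For each factor (circles) and 4 layer keratins (diamonds), the SD between libraries of the same group, pooled over the 4 groups, on the horizontal axis and the range of the 4 group means on the vertical axis, both in log2 CPM. The star marks the median over all tested genes, 0.28 and 0.39. Pitx1, Tfap2a and Trp63 lie left of the star, and Klf4, Grhl1, Grhl3, Ovol1 and Zfp750 lie right of it together with Krt4 and Krt13.

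The scatter of these factors followed the suprabasal keratins. The 6 libraries highest in Klf4 were the 6 with the highest Krt4 and Krt13 share, and the same held for Grhl1, Grhl3 and Zfp750. For Zfp750 it rested on a near tie, Ikkβca replicate 3 at 221.7 CPM against Ikkβca replicate 1 at 221.2 CPM. For Ovol1 and Ehf 5 of the top 6 were shared, for Klf5 and Pitx1 4, for Tfap2a 3, for Trp63 1, and for the basal keratin Krt5 0. With library totals the shared number was still 6 for Klf4, Grhl1 and Grhl3, 5 for Zfp750 and 4 for Ovol1 and Ehf, and it was 1 for Pitx1 and Tfap2a. Within groups, a doubling of Krt4 plus Krt13 went with a log2 change of 0.69 ± 0.08 (SE) in Grhl3, 0.66 ± 0.07 in Klf4, 0.61 ± 0.08 in Grhl1, 0.52 ± 0.13 in Ovol1 and 0.45 ± 0.08 in Zfp750. The slope was 0.31 ± 0.05 for Ehf, 0.23 ± 0.05 for Klf5, 0.06 ± 0.04 for Pitx1, -0.03 ± 0.05 for Tfap2a and -0.15 ± 0.04 for Trp63. Krt5 had a slope of -0.28 ± 0.05, so Trp63 shared its sign with the basal keratin and the differentiation factors shared theirs with the suprabasal keratins. These slopes are a description, since libraries share depth and tissue make-up, and the libraries fall into separate low and high keratin ranges. What sets the keratin share of a library was not tested.

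The library scaling bears on these slopes. With library totals in place of TMM factors the median slope over all genes was -0.27, against -0.03 with TMM. The slopes were then 0.61 for Grhl3, 0.58 for Klf4, 0.52 for Grhl1, 0.40 for Ovol1, 0.32 for Zfp750 and 0.15 for Ehf, and they kept their sign. Trp63 had -0.41 and Tfap2a -0.28, and Pitx1 turned to -0.17 ± 0.05. Set against the median slope of all genes, Tfap2a lay at it under both scalings, Pitx1 lay above it and Trp63 below it. Klf5 had 0.05 ± 0.07 with library totals.

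**Figure D4:**
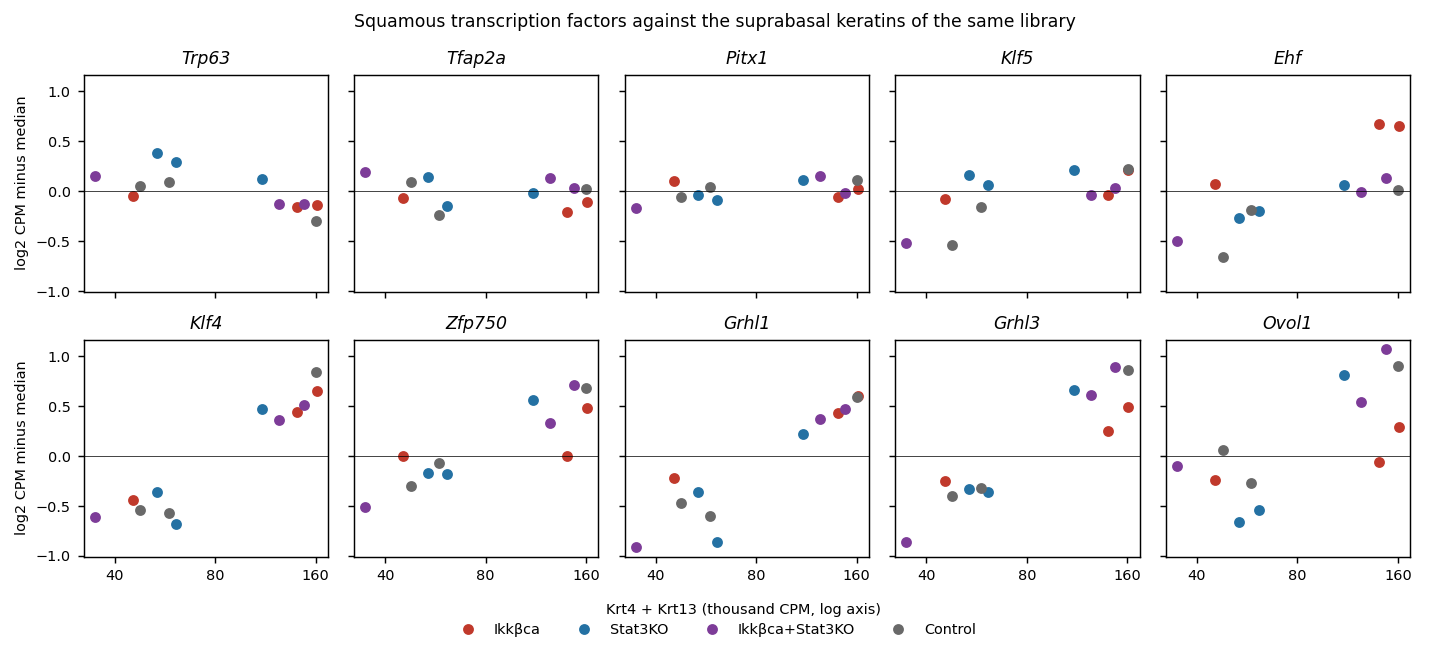
Each panel plots a factor's log2 CPM in the 12 libraries, relative to its median, against the summed Krt4 and Krt13 level of the same library on a log axis, with colours for the genotype groups. Klf4, Grhl1, Grhl3, Zfp750 and Ovol1 lie higher in the libraries on the right, Trp63 lies lower there, and Pitx1 and Tfap2a are nearly level. The Ikkβca libraries of Ehf lie above the other groups at a like keratin level.

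When the log2 level of Krt4 plus Krt13 was added to the edgeR fit as a covariate, a step chosen after seeing the data, the error of the keratin-linked members shrank and 1 member was called. The standard error for Ikkβca over Control was 0.16 for Klf4, against 0.46 without the covariate, and 0.17 for Grhl3, against 0.47. The log2 fold change was then 0.03 for Klf4, with an interval of -0.32 to 0.38, and -0.13 for Grhl3, with an interval of -0.50 to 0.24.

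Ehf was the member called with the covariate. In Ikkβca over Control, where 2.85% of all genes were called in that fit, its log2 fold change was 0.62 ± 0.10, with an interval of 0.40 to 0.83 (edgeR adjusted p = 0.00746). It passed the threshold in 11 of 12 fits that each left out a library, and missed it without Control replicate 3 (edgeR adjusted p = 0.0556). With library totals in place of TMM it was 0.62 too (edgeR adjusted p = 0.00955). For the active IKKβ allele averaged over both Stat3 states, where 6.16% of all genes were called, Ehf had 0.27 ± 0.07 (edgeR adjusted p = 0.0443). That call held in 1 of 12 fits with a library left out, the fit without Control replicate 2, and the adjusted p was as high as 0.139 without Ikkβca+Stat3KO replicate 2.

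In the other comparisons the covariate gave 0 called members, against 0% of all genes in Stat3KO over Control, 3.14% in Ikkβca+Stat3KO over Control, 0.212% in Ikkβca+Stat3KO over Ikkβca and 1.57% in Ikkβca+Stat3KO over Stat3KO. It likewise gave 0 members against 0% for the interaction and 2.16% for Stat3 deletion averaged over both IKKβ states. Ehf in Ikkβca+Stat3KO over Ikkβca stood at -0.52 ± 0.10 (edgeR adjusted p = 0.0604) and its interaction at -0.69 ± 0.14 (edgeR adjusted p = 0.398). Trp63 in Stat3KO over Control stood at 0.30 ± 0.08, with an interval of 0.13 to 0.48 (edgeR adjusted p = 0.148). Krt4 and Krt13 are measured in the same libraries, and while neither differed between Ikkβca and Control beyond the spread (log2 fold changes of 0.38 ± 0.72 and 0.38 ± 0.59), a genotype effect on them would also be removed by this fit.

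**Figure D5:**
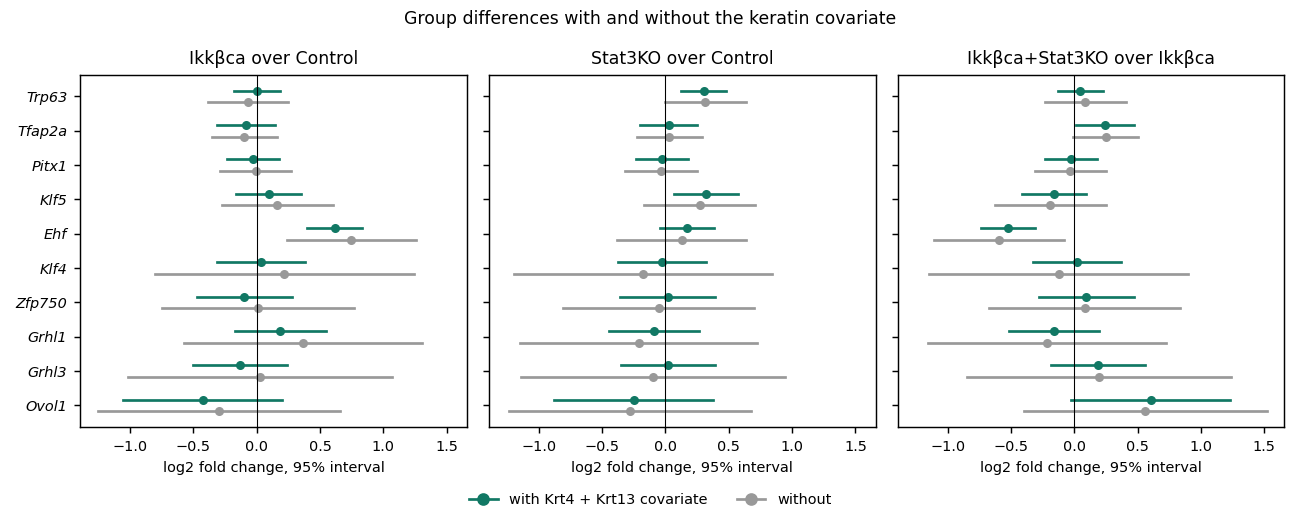
Log2 fold changes with 95% intervals for 3 comparisons, from the edgeR fit with the Krt4 plus Krt13 covariate (green) and without it (grey). The intervals of Klf4, Grhl1, Grhl3 and Zfp750 shrink by more than those of Pitx1 and Tfap2a, and Ehf in Ikkβca over Control stands at 0.62, with an interval of 0.40 to 0.83.

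Other genes of the squamous programme were read beside the members. Of 39 further squamous transcription factors 37 were tested, and 1 rose in Ikkβca over Control, where 0.955% of all genes were called: Pou3f1, a POU factor of differentiating keratinocytes. At an unadjusted edgeR p below 0.05 there were 7 of 37 in that comparison, beside 13.0% of all genes, and 8 of 37 for the averaged active IKKβ effect, beside 15.5%. Pou3f1 had 7.0, 10.9 and 10.1 CPM in Ikkβca and 1.17, 1.93 and 3.70 CPM in Control, a log2 fold change of 2.02 ± 0.40 (edgeR adjusted p = 0.0428). That call held in 1 of 12 fits with a library left out, and its adjusted p was up to 0.176 without Control replicate 2. For the active IKKβ allele averaged over both Stat3 states, Pou3f1 rose by 1.89 ± 0.29 (edgeR adjusted p = 0.00545). Tfap2c, which encodes AP-2γ, a paralogue of AP-2α, rose by 0.31 ± 0.07 in the same averaged comparison (edgeR adjusted p = 0.0381), a call that held in 0 of 12 fits with a library left out (edgeR adjusted p of 0.0507 to 0.103) and was lost with library totals (0.25, edgeR adjusted p = 0.539). Tfap2c had 49.67 to 58.8 CPM in the 6 libraries with Cre and the active allele and 37.8 to 49.60 CPM in the other 6. These ranges all but touch, and the share of all genes that part in this way was not counted. The Tfap2c paralogue Tfap2a had a log2 fold change of 0.01 ± 0.08 in the averaged comparison. edgeR called none of the 37 factors in any other comparison, where 2 to 4 had an unadjusted p below 0.05, beside 4.66 to 12.7% of all genes. By contrast, DESeq2 also called Pou3f1 in Ikkβca+Stat3KO over Control and over Stat3KO, Tfap2c over Stat3KO, and Runx1 in Ikkβca over Control and in the averaged comparison. For all 37, their median log2 fold change was 0.14 in Ikkβca over Control, beside 0.00 over all genes.

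Genes linked to p63 in basal cells and genes of suprabasal differentiation were read next, as lists chosen by name. The libraries above the gap in Krt4 and Krt13 share were not spread evenly over groups. They were replicates 2 and 3 in Ikkβca, replicates 1 and 3 in Ikkβca+Stat3KO, and replicate 3 alone in Stat3KO and in Control. The part of this imbalance in the medians of both lists was not tested. Of 25 basal genes, all tested, edgeR called 0 in each of the 8 comparisons, with 1 to 10 at an unadjusted p below 0.05, beside 4.66 to 15.5% of all genes. DESeq2 called Dst in Stat3KO over Control, Lama3 in Ikkβca+Stat3KO over Stat3KO, and Col17a1, Fgfr2 and Lama3 for the averaged active IKKβ effect. The basal list had a median log2 fold change of -0.10 in Ikkβca over Control, 0.26 in Stat3KO over Control and -0.36 in Ikkβca+Stat3KO over Stat3KO, where 10 of the 25 had an unadjusted edgeR p below 0.05, beside 8.96% of all genes. Trp63 stood at -0.07, 0.31 and -0.29 in these. In Ikkβca+Stat3KO over Control the signs differed, with -0.11 for the basal median and 0.02 for Trp63. Of 33 suprabasal genes 30 were tested. Their medians were 0.29 in Ikkβca over Control, -0.30 in Stat3KO over Control and 0.38 in Ikkβca+Stat3KO over Stat3KO. Over all genes the medians were 0.00, -0.02 and 0.01 there. At an unadjusted edgeR p below 0.05 there were 2, 0 and 2 of the 30, beside 13.0, 7.50 and 8.96% of all genes. In Ikkβca+Stat3KO over Control the suprabasal median was 0.08, with 2 of the 30 below 0.05, beside 11.5% of all genes.

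Krt10, the keratin of cornifying epidermis, was the suprabasal gene that edgeR called between pairs of groups, and DESeq2 also called Krt1 in Ikkβca+Stat3KO over Stat3KO. It had 225, 316 and 505 CPM in Ikkβca and 339, 161 and 470 CPM in Ikkβca+Stat3KO, against 39.3, 26.4 and 25.1 CPM in Stat3KO and 59.7, 24.0 and 37.9 CPM in Control. The log2 fold change was 3.10 ± 0.47 in Ikkβca over Control (edgeR adjusted p = 0.0102), and 3.42 ± 0.47 in Ikkβca+Stat3KO over Stat3KO (edgeR adjusted p = 0.00862). In Ikkβca+Stat3KO over Control it was 3.0 ± 0.46 (edgeR adjusted p = 0.0134). These calls were lost without Control replicate 2 or 3 (edgeR adjusted p of 0.0524 to 0.0665 over Control), without Ikkβca+Stat3KO replicate 3 for that group over Control (0.0556), and without Stat3KO replicate 2 or 3 over Stat3KO (0.0837 and 0.0638). Krt1, its pairing partner, rose by 3.33 ± 0.62 for the active allele averaged over both Stat3 states (edgeR adjusted p = 0.0181, but 0.0510 without Ikkβca replicate 3 and 0.0622 without Stat3KO replicate 1), as did Krt10 by 3.26 ± 0.33. Without the keratin covariate, none of the regulators of the suprabasal programme named above passed the test in that averaged comparison. Their log2 fold changes were 0.39 ± 0.16 for Ehf, 0.37 ± 0.30 for Grhl1 and 0.24 ± 0.33 for Klf4. Grhl3, Ovol1 and Zfp750 had 0.17 ± 0.34, 0.12 ± 0.31 and 0.08 ± 0.24.

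The genes whose pattern over the 12 libraries was most like that of each member were named by Pearson's r of log2 CPM among 11124 candidates, as a measure of likeness only, with no test, over libraries that share the keratin ranges given above. Klf4 was most like Cyfip2 (r = 0.99), Daam1 and Ttpal, Grhl1 like Spnb3 (r = 0.99), Vasn and Acss2, and Grhl3 like Llgl2 (r = 0.97), Rhbg and Pura. Zfp750 was most like Bcar1 (r = 0.97), Pir and Mapk1ip1l, and Ovol1 like Stk40 (r = 0.95), Ttc1 and BC031781. Ehf was most like Rapgef5 (r = 0.96), Atp2a2 and Cdk6, and Klf5 like Nek1 (r = 0.94), Kif16b and Sntb1. Trp63 was most like Klhl29 (r = 0.98), Ptk7 and Sgk3. Pitx1 and Tfap2a had lower best matches, Lypd2 (r = 0.90) with Cldn23 and Sh3bp1 for Pitx1, and Akap7 (r = 0.90) for Tfap2a with Pcmtd2 and Kctd9.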

How the data were processed

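The authors' deposited files hold raw read counts per gene symbol, 1 file per library. The submitters' processing notes name cutadapt 1.13, STAR, HTSeq 0.6.1p1 and DESeq2, with mm10 as the build, and whether strand was used in counting is not given in the sources used here. Here the counts were filtered with filterByExpr (14134 of 23337 symbols kept) and scaled by TMM. A quasi-likelihood model over all 4 groups followed in edgeR (version 4.0.16, with R 4.3.3 and limma 3.58.1). The common dispersion was 0.0878. A gene was called at a Benjamini-Hochberg adjusted p below 0.05 over all tested genes. Intervals are 95% intervals, and log2 CPM used a prior count of 2. No library repeated another of its group within sampling noise (chi-square per degree of freedom of at least 26.1). Positions and lengths came from GENCODE M21, which matched 20915 symbols. The main edgeR fit was tested on simulated counts with known fold changes in Ikkβca. These were all larger in size than any member's difference between groups, and libraries were drawn without shared variation linked to the keratins. Recovery of changes as small as the members' was thus not tested. The covariate fit, DESeq2 and the other alternatives were not part of that test.

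The members and gene lists were chosen with earlier results of these data known. Besides the 10 members, the genes named are called genes of the lists of further squamous factors, basal and suprabasal genes, the 3 genes most like each member, the targeted genes and the layer keratins. Genes that DESeq2 alone called were added after their values were seen. Alternatives were the size factors or the Wald test of DESeq2 (1.42.0), no filter, a replicate block, only the libraries compared, and leaving out each library or the libraries rich in gastric transcripts. Library totals, a covariate of Krt4 plus Krt13 and fits by Xist level (above or below 100 CPM) were added after seeing the data.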

Additional observations from a re-analysis of the deposited data

How the results depend on the processing

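For the 10 members in 8 comparisons, 80 log2 fold changes were recomputed to give 1730 alternative values. Of these, 2 passed the threshold, both for Ehf with the Krt4 and Krt13 covariate, which turned the count of called members to 1 for Ikkβca over Control and to 1 for the averaged active IKKβ effect, against 0 without it. The sign changed in 181 values, each of a fold change that was not called and of at most 0.32 in size, and 26 values moved by more than the standard error. With a replicate block 0 members were called in all 8 comparisons, and Ehf in Ikkβca over Control stood at 0.75 (edgeR adjusted p = 0.119). No label says what a replicate number stands for, and the check on the data did not settle whether the numbers mark pairs. Of 18 pairs of the same number, 9 had deviations correlated above 0.1, in a range of -0.41 to 0.45. Pairs of different numbers ranged from -0.54 to 0.39, and 8 of 12 libraries correlated best with a library of their own number. Replicate 1 was the library high in Xist in every group, so the number follows the Xist level, evenly over groups. With Xist high or low as a term, 0 members were called in all 8 comparisons, and Ehf in Ikkβca over Control stood at 0.75 (edgeR adjusted p = 0.171). With only the 8 libraries low in Xist it stood at 0.75 (edgeR adjusted p = 0.518), again with 0 members called. Both fits were added after seeing the data. The count of all genes called in Ikkβca over Control was 135, against 442 with DESeq2, 403 with the covariate, 66 with library totals, 61 with only the groups compared, 83 without the libraries rich in gastric transcripts, 19 with only the libraries low in Xist and 42 to 145 with a library left out. For the averaged Stat3 effect it was 37, against 402 with DESeq2, 306 with the covariate, 0 with the replicate block, library totals or only the libraries low in Xist, and 0 to 52 with a library left out, 0 without Ikkβca replicate 3, Stat3KO replicate 1 or 2, or Ikkβca+Stat3KO replicate 1 or 3. It was 125 for Ikkβca+Stat3KO over Control (8 with only the libraries low in Xist to 476 with DESeq2), 65 over Stat3KO (7 to 297 in the same settings) and 384 for the averaged active IKKβ effect (105 with only the libraries low in Xist to 870 with the covariate). It was 0 in Stat3KO over Control (106 with DESeq2), in Ikkβca+Stat3KO over Ikkβca (131 with DESeq2, 30 with the covariate) and for the interaction (6 with DESeq2). A fit of only the groups compared could not be run for the interaction and the averaged effects, which need all 4 groups. Of levels per length, Grhl1 (109 TPM), Klf5 (195 TPM) and Zfp750 (185 TPM) moved by more than their SD with the longest transcript length. The spread of Klf4, Grhl1, Grhl3 and Ovol1 within groups limits what 3 libraries a group can show: their intervals without the covariate reach about 1 log2 unit on either side.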
